A study of Rattus norvegicus with 50 samples.

Results

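The lungs of air-breathing control rats taken at the end of the 4-week exposure period (D0) were compared with those of control rats taken 3 days later (D3). The 10 arrays, 5 per group, were chosen by their sample titles out of the 50 arrays of the series. All rats were male F344, an inbred laboratory strain, aged 12 weeks per the labels. The labels give this age for every day from D0 to D180, so it cannot be the age at sampling on each day. The 5 D0 and 5 D3 control rats had breathed filtered air by nose only for 6 hours per day, 5 days per week, during 4 weeks, while the exposed rats breathed an aerosol of TiO2 P25 nanoparticles at 10 mg/m3. For reference, values are also given for the 5 control rats of D28 and for the 5 exposed rats of D0 and of D3. RNA came from the accessory lobe, a small lobe of the right lung, and each rat had an array of its own. No group of rats kept outside the exposure apparatus was analysed here, so effects of handling or restraint and of the time since the last session cannot be told apart.

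Heat shock proteins are chaperones that bind unfolded proteins. Their genes are switched on by the heat shock factor Hsf1, which binds repeats of the letters GAA and TTC, and they are known to respond to heat, oxidants and protein damage. Dividing cells in the adult lung are few, and genes for copying and separating chromosomes are active almost wholly in these cells. Many genes of cell division carry CCAAT boxes, bound by NF-Y, and a cell cycle homology region, with the letters TTTGAA, close to the start of transcription. Fmo and Cyp enzymes add oxygen to foreign compounds, and in rodents the lung expresses several of them strongly.

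The sequences below are the 250 bases before the start of transcription of 3 chaperone genes that fell from D0 to D3 and of 2 cell division genes that rose, from RefSeq on rat assembly GRCr8. They are shown to let the motif letters be seen in genes that were called. Hspa1b is not shown. In the first 3, capitals mark the heat shock letters GAANNTTC or TTCNNGAA, each its own reverse complement, so that one search covers both strands. Matches may overlap, as they do in Hsph1. Only these letters are capitalised here, and matches to the other motifs are counted below without capitals.
Dnajb1, chr19:41431142-41431391, minus strand: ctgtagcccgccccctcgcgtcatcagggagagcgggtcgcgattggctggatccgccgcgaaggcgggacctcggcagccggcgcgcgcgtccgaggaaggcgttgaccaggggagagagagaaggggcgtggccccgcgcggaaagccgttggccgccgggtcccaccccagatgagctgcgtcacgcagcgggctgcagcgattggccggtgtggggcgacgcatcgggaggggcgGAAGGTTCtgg
Hsph1, chr12:10427118-10427367, plus strand: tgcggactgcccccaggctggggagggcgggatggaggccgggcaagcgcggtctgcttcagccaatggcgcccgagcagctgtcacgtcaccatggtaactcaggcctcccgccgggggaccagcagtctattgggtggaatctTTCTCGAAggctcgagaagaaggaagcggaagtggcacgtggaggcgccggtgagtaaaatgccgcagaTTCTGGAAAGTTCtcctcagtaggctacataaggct
Hspb1, chr12:26432302-26432551, minus strand: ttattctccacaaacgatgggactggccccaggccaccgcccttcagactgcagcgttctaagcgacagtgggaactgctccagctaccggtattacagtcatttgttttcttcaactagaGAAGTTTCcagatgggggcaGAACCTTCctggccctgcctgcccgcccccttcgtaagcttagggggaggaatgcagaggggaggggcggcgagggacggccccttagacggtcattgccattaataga
In the next pair, capitals mark CCAAT or its reverse complement ATTGG, and TTTGAA or its reverse complement TTCAAA.
Ccnb2, chr8:79981659-79981908, minus strand: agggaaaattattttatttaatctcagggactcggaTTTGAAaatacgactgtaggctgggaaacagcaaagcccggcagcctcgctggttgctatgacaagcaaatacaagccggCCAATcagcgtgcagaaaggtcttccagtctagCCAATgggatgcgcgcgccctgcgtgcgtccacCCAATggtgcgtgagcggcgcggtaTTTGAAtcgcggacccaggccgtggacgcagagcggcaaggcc
Top2a, chr10:84473094-84473343, minus strand: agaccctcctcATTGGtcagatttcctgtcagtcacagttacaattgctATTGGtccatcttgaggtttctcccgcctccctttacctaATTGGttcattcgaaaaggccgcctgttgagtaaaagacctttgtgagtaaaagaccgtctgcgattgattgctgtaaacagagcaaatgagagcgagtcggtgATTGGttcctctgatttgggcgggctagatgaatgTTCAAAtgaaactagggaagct
Of all 33469 promoters of that length, 13.5% held at least 1 match to the heat shock letters, 9.42% held at least 2 CCAAT boxes and 16.2% held a cell cycle homology region. Dnajb1 held 1 heat shock match, Hspb1 2 and Hsph1 3. Ccnb2 held 3 CCAAT boxes and 2 cell cycle homology regions, and Top2a 4 and 1. The motifs were not kept to 1 of these groups, since Dnajb1 and Hsph1 held 2 CCAAT boxes each and Top2a 1 heat shock match, which overlaps its cell cycle homology region. These matches describe the letters and do not show that a factor was bound.

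The median signal of the control arrays ran from 205 to 442 fluorescence units at D0 and from 269 to 401 at D3. Between 68.7% and 80.4% of gene spots were well above background at D0, and between 70.6% and 79.0% at D3. No pair of arrays was identical, and across genes the arrays correlated at 0.972 to 0.990 within D0, 0.979 to 0.992 within D3 and 0.974 to 0.992 between both groups, genes not being independent replicates. The 10 arrays lay on 4 slides, each of which held both groups. Markers of lung were at the top of the scale, with log2 signals of 18.83 at D0 and 18.72 at D3 for Sftpc, the surfactant protein of alveolar type II cells, and of 17.63 and 17.41 for Scgb1a1 of club cells. Cdh5, the cadherin of endothelial cells, lay at 9.87 and 10.05.

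A gene was called differentially expressed (a DEG) at an adjusted p under 0.05 in limma and a change of at least 1.5-fold. Of 25237 genes tested, 565 (2.24%) were called between D0 and D3 in control rats, 365 higher at D3 (1.45%) and 200 lower (0.792%). These shares are the reference for the counts of list members below. The median fold among them was 1.80. Over all genes the median difference was -0.0091 on the log2 scale. With slide as a block 759 genes were called, of which 526 were among the 565. Values given below are log2 signals, and a difference is always D3 minus D0 unless stated.

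Genes of cell division were lower in the D0 control lungs than at D3. Of the 40 cell cycle genes, 26 rose from D0 to D3 and none fell, and the median difference of the list was 1.03. In 32 of the 40, every D3 rat lay above every D0 rat, whereas the groups did not overlap in either direction for 5.7% of all genes. Top2a, the topoisomerase that untangles chromosomes before they part, had signals of 5.91, 5.94, 6.28, 5.81 and 6.43 in the 5 D0 rats and 8.11, 8.08, 7.66, 8.01 and 7.97 in the 5 D3 rats. The D3 values were tightly grouped and stood well clear of D0, a rise of 1.89 ± 0.16 (SE, 3.71-fold, limma adjusted p = 1.52e-11). Its probes gave differences of 1.93 and 1.74.

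Ccnb2, a cyclin that drives entry into mitosis, lay at 6.13, 5.95, 5.95, 5.92 and 6.64 at D0 and at 7.91, 8.11, 7.85, 8.02 and 7.60 at D3. It rose by 1.78 ± 0.14 (SE, limma adjusted p = 8.55e-13), and D0 replicate 5 was the highest of its group. The motor Kif11, which pushes spindle poles apart, was between 6.05 and 6.32 at D0 and between 7.60 and 7.94 at D3, and it rose by 1.65. Birc5 (survivin), a subunit of the complex that checks chromosome attachment, was between 7.13 and 7.45 at D0 and between 8.70 and 8.92 at D3, and it rose by 1.48. The mean signal of the whole list was 7.60 to 7.80 in D0 rats and 8.57 to 8.72 in D3 rats. Within the 4 slides this mean differed by 0.81, 1.01, 0.99 and 1.00, so each slide gave the same direction. With normexp background correction, which adds an offset and so shrinks differences of dim genes, Top2a was at 1.21, Ccnb2 at 1.15 and Kif11 at 1.05, and each was still called. The 14 members that were not called ranged from Aurkb, at -0.35, to Cdca8, at 0.98, and among them were the replication licensing genes Mcm2, Mcm4, Mcm6 and Mcm7, at 0.23, 0.40, 0.37 and 0.12.

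**Figure D1:**
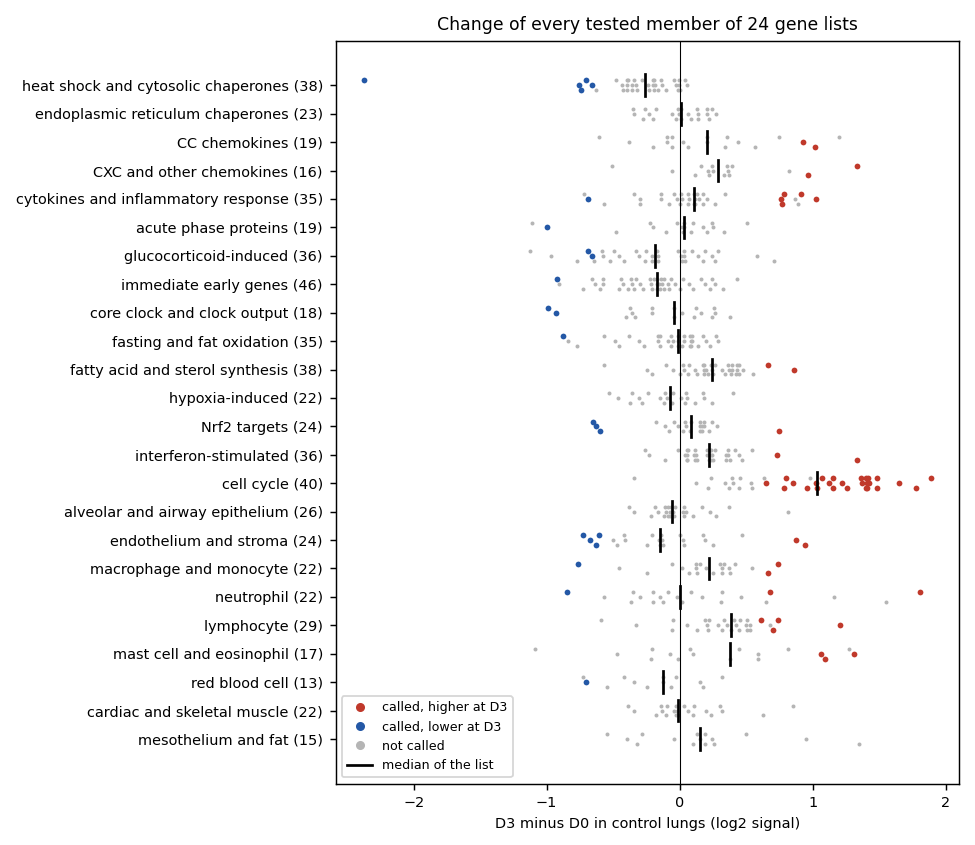
Difference D3 minus D0 in control lungs (x axis, log2 signal) of each tested member of the 24 gene lists (y axis, number of tested members in brackets). Red and blue points were called higher and lower at D3, grey points were not called and black bars mark list medians. The cell cycle list, with a median of 1.03, stands furthest to the right, and Hspa1b, at -2.37, is the point furthest to the left.

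The 10 largest increases under the naming rule included further genes of this kind. Depdc1, needed for progress through mitosis, rose by 2.13, and Ska1, which ties microtubules to kinetochores, by 1.92. Asf1b, a chaperone that delivers histones to new DNA, rose by 1.85, and Ns5atp9, now Pclaf, which binds the replication clamp, by 1.78. Cdca3, a regulator of mitotic entry, rose by 1.74 and the centromere protein Cenpw by 1.73. For Depdc1 the dimmer of the probes, well above background on none of the D0 arrays, gave 0.86 and was not called. With normexp Depdc1, Ska1 and Asf1b were at 0.85, 0.61 and 0.75, and with the authors' normalized values at 1.00, 0.78 and 0.81, all still called. In gene families that were counted after values had been seen, 6 of 17 centromere proteins and 7 of 34 kinesins rose and none fell.

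The largest increase of all was in Dnase2b, an acid DNase, with signals of 3.11, 3.01, 2.36, 2.51 and 3.56 at D0 and of 6.63, 7.33, 5.95, 5.81 and 5.85 at D3. It was not well above background on any D0 array and was so on all 5 D3 arrays, and it rose by 3.40 (limma adjusted p = 2.38e-10). With D0 values raised to the lowest signal well above background on each array, D3 was 8.90-fold higher. This is not a lower bound, since a gene not well above background can read higher than that signal. The difference of Dnase2b was 1.01 with normexp and 1.22 with the authors' normalized values, both called. Fcnb, a ficolin of monocytes and neutrophils, lay between 9.09 and 9.96 at D0 and between 10.91 and 12.23 at D3, a rise of 1.81.

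Several heat shock genes were higher in the D0 control lungs. Of the 38 heat shock and cytosolic chaperone genes tested, 5 fell and none rose, where 0.792% of all genes fell. The list median was -0.26. In 8 of the 38 every D0 rat lay above every D3 rat, where 5.7% of all genes did not overlap in either direction. Hspa1b, an Hsp70 whose gene is among the most strongly induced by heat shock, had signals of 12.30, 14.32, 12.33, 12.71 and 12.14 at D0 and of 9.24, 10.40, 10.54, 10.63 and 11.11 at D3. All 5 D0 rats were above all 5 D3 rats, and D0 replicate 2 was the highest. Without that rat the difference was -1.98. Hspa1b fell by 2.37 ± 0.48 on the log2 scale (SE, 5.19-fold, limma adjusted p = 0.000735), the largest decrease among the genes named by the rule.

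The signal of Hspa1b rests on the probe at rn4 chr20:3957864-3957923, which fell by 2.40, since the probe at chr20:3959493-3959552 was well above background on none of the 10 arrays. Hspa1a, a near-identical copy, was not tested under its own name, and its RNA may add to the Hspa1b signal. Within slides the Hspa1b difference was -1.67, -3.56, -3.09 and -2.08.

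Dnajb1, the Hsp40 that hands clients to Hsp70, had signals of 12.06, 12.75, 12.33, 12.44 and 12.42 at D0 and of 11.30, 11.67, 11.89, 11.69 and 11.75 at D3, and it fell by 0.74. The small heat shock protein Hspb1 was between 15.20 and 15.76 at D0 and between 14.55 and 14.90 at D3, and it fell by 0.76 ± 0.077 (SE, limma adjusted p = 1.19e-09). Hsph1, the Hsp110 that exchanges nucleotide on Hsp70, lay between 8.67 and 9.49 at D0 and between 8.04 and 9.03 at D3. These ranges overlapped, the fall was 0.70 and in a fit of only these 10 arrays its adjusted p was 0.157. Ahsa2, a gene related to the Hsp90 activator Ahsa1, fell by 0.66.

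The constitutive Hspa8 differed by -0.43 with every D0 rat above every D3 rat, but stayed under the fold limit, and the co-chaperone Bag3 differed by -0.19 (limma adjusted p = 0.799). Among the 23 chaperones of the endoplasmic reticulum, none was called and the median was 0.0075. The mean of the heat shock list differed by -0.23, -0.41, -0.51 and -0.35 within the slides. This mean was 12.04 to 12.36 in D0 rats and 11.76 to 12.07 in D3 rats. The groups thus overlapped, with D0 replicate 1 under D3 replicate 5. With adjusted p alone and no fold limit, 13 members were lower at D3.

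**Figure D2:**
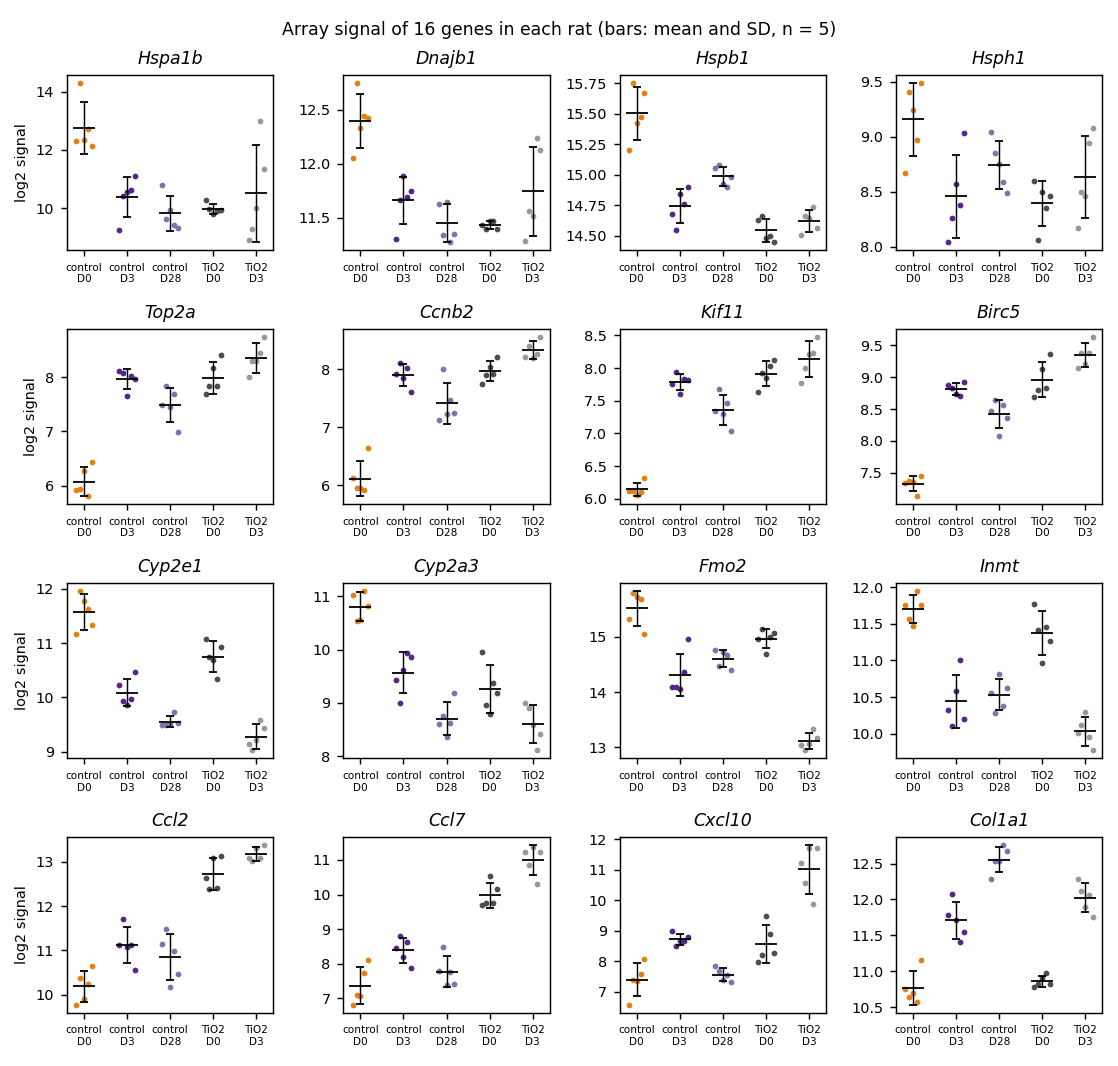
Log2 array signal (y axes, which do not start at 0) of 16 genes in each rat (points) of the control groups at D0, D3 and D28 and the TiO2 groups at D0 and D3, with the mean and SD of 5 rats. For Hspa1b the D0 control rats lie between 12.14 and 14.32 and the D3 control rats between 9.24 and 11.11. For Top2a the D0 control rats lie between 5.81 and 6.43, under all rats of the other 4 groups.

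Targets of stress hormones were read next. Of 36 genes known to be induced by glucocorticoids, 2 fell and none rose, where 0.792% of all genes fell, with a median of -0.19. Gpx3, the secreted glutathione peroxidase, fell by 0.66 and Il1r2, the decoy receptor for interleukin 1, by 0.69, the latter with an adjusted p of 0.193 in a fit of only these 10 arrays. Zbtb16, a transcription factor strongly induced by corticosterone, had signals of 9.18, 9.45, 8.98, 8.49 and 7.15 at D0 and of 6.19, 6.03, 7.46, 8.93 and 9.002 at D3. The groups overlapped over most of their width, and the difference of -1.13 ± 0.80 (SE) was not called (limma adjusted p = 0.542). Fkbp5, a chaperone that restrains the glucocorticoid receptor, differed by -0.64 (limma adjusted p = 0.262), Tsc22d3 by -0.33 and Per1 by 0.26, none of them called.

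Immediate early genes, which respond to stimuli within minutes, gave 1 call among 46, near the 2.24% of all genes called. Maff, a small Maf factor, lay between 7.19 and 7.90 at D0 and between 6.45 and 6.70 at D3, and it fell by 0.92, or by 0.60 with normexp. The list median was -0.17. Fos ranged from 9.51 to 12.05 at D0 and from 8.37 to 11.57 at D3, a difference of -0.72 ± 0.57 (SE, limma adjusted p = 0.601). Replicate 2 was the highest rat for Fos in either group. Egr1 differed by -0.66, Atf3 by -0.64 and Nr4a1 by -0.21, without a call, and the sign of Nr4a1 turned to 0.11 without D0 replicate 2 and to 0.060 without D3 replicate 3. Of 22 hypoxia genes none was called.

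Chemokines were lower, not higher, in the D0 control lungs where they were called. Among 19 CC chemokines 2 rose to D3, where 1.45% of all genes rose, and the list median was 0.21. Ccl2, which draws monocytes, had signals of 9.77, 10.37, 9.90, 10.25 and 10.63 at D0 and of 11.12, 11.71, 11.08, 11.12 and 10.55 at D3. D3 replicate 5 lay inside the D0 range and the rise was 0.93 ± 0.23 (SE, limma adjusted p = 0.00613). Ccl7, a ligand of the same receptor, was between 6.82 and 8.10 at D0 and between 7.87 and 8.79 at D3, and it rose by 1.02. In a fit of only these 10 arrays the adjusted p was 0.0793 for Ccl2 and 0.1 for Ccl7.

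Of 16 CXC and other chemokines, Cxcl10, induced by interferons, rose by 1.33 and Xcl1, made by T and NK cells, by 0.97, and in both every D3 rat was above every D0 rat. None of this list fell, where 1.45% of all genes rose and 0.792% fell, and its median was 0.29. The neutrophil attractants Cxcl1 and Cxcl2 differed by -0.51 (limma adjusted p = 0.279) and 0.21 (limma adjusted p = 0.867), and the sign of Cxcl2 turned to -0.27 without D3 replicate 2. Ccl20 differed by -0.38, with every D0 rat above every D3 rat, and was not called. Il6 was well above background on none of the 10 arrays, and Il1b differed by -0.30 (limma adjusted p = 0.338).

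In the list of 35 cytokine and inflammatory genes, 5 rose and 1 fell, against 1.45% and 0.792% of all genes. The list median was 0.11. The TNF receptor Tnfrsf1b rose by 0.78, Tlr2, a receptor for bacterial lipoproteins, by 0.77 and Gdf3, a growth factor of the TGF-beta family, by 0.91. Gdf3 came under the fold limit with normexp (0.39) and with the authors' normalized values (0.45), and 1 of its probes alone was not called (0.78). The endothelial selectins Sele and Selp rose by 1.02 and 0.77, and each lost its call when any of 6 arrays was left out. For Sele these were D0 replicates 1, 2 and 5 and D3 replicates 1, 2 and 4, with values from 0.80 to 1.08. For Selp they were D0 replicates 1, 2, 4 and 5 and D3 replicates 1 and 2, with values from 0.59 to 0.80. Neither was called with normexp, at 0.32 for Sele and 0.63 for Selp, or in a fit of only these 10 arrays, and Sele was not called with the authors' normalized values, at 0.45. Of 19 acute phase genes 1 fell, the protease inhibitor Serpina3n, by 1.00. The median of that list was 0.030, with 12 members above 0 and 7 below. Of 36 interferon-stimulated genes 2 rose, Cxcl10 and the nucleic acid sensor Zbp1, by 0.74, and the list median was 0.22. Zbp1 came under the fold limit with normexp (0.49) and with the authors' normalized values (0.54).

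Some enzymes that act on foreign compounds were higher at D0. Cyp2e1, a cytochrome P450 that oxidises small solvents, had signals of 11.16, 11.96, 11.78, 11.62 and 11.33 at D0 and of 10.22, 9.93, 9.86, 9.96 and 10.46 at D3. The groups were clear of each other, and Cyp2e1 fell by 1.48 ± 0.17 (SE, 2.79-fold, limma adjusted p = 1.16e-08). Cyp2a3 fell by 1.24 and Inmt, an amine methyltransferase abundant in lung, by 1.26.

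The flavin monooxygenases Fmo2 and Fmo6, named after values had been seen, fell by 1.20 and 1.15. Fmo2 lay between 15.05 and 15.80 at D0 and between 14.06 and 14.96 at D3, so its groups did not overlap. Counted as a family after values had been seen, of 39 P450 genes of families 1 to 3, of which 19 were well above background on at least 3 arrays of either group, 3 fell and none rose. Among 24 targets of Nrf2, the regulator of antioxidant defence, 3 fell and 1 rose, against 0.792% and 1.45% of all genes. The list as a whole was not lower at D3. Its median was 0.084, with 16 members above 0 and 8 below. The glutathione transferases Gsta1 and Gsta3 fell by 0.60 and 0.63 and Osgin1 by 0.65. Gsta1 came under the fold limit without any of 5 arrays (D0 replicates 2 and 3, D3 replicates 1, 2 and 3; 0.56 to 0.58) and Gsta3 without D0 replicate 4 or D3 replicate 2 (0.57 in each case). The second probe of Gsta3, well above background on all 5 arrays of each group, did not fall. It rose by 0.066, while the other probe was at -0.68. The transporter Abcc2 rose by 0.75, though it was well above background on none of the D0 arrays and 1 of the D3 arrays. With normexp and with the authors' normalized values Abcc2 was at 0.18 and 0.21 and Osgin1 at -0.51 and -0.54, all under the fold limit. Gsta1, at -0.55, was also under it with 75th percentile scaling.

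Further large decreases were in other kinds of genes. Aqp3, a channel for water and glycerol, was between 10.07 and 10.98 at D0 and between 8.13 and 9.15 at D3, and it fell by 1.91. Dlk1, a growth regulator related to Notch ligands, was between 5.82 and 6.57 at D0 and between 3.97 and 4.90 at D3, where it was well above background on 1 of 5 arrays, and it fell by 1.95. With normexp and with the authors' normalized values Dlk1 was at -0.67 and -0.81, still called. Mlc1, a membrane protein, fell by 1.68, Asb11, an adaptor of a ubiquitin ligase, by 1.53 and the leucine-rich repeat protein Lrrc2 by 1.27. With normexp Asb11 was at -1.01 and Lrrc2 at -0.63, and Lrrc2 was at -0.73 with the authors' normalized values, all called.

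Clock genes were read because organs taken at other hours of the day differ in many transcripts. Dbp, the output gene with the widest daily swing in most tissues, lay between 14.39 and 14.78 at D0 and between 14.36 and 14.65 at D3, a difference of -0.042 (limma adjusted p = 0.97). The repressor Nr1d1 differed by 0.16 and the activator Arntl by 0.38, not called, although every D3 rat was above every D0 rat for Arntl. Of 18 clock genes 2 fell, the repressors Cry1, by 0.99, and Per2, by 0.93, each with every D0 rat above every D3 rat. Per2 had an adjusted p of 0.0625 in a fit of only these 10 arrays. The part of clock phase in the other differences was not tested.

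Markers of cell types differed in how many were called, against 2.24% of all genes. None of 26 alveolar and airway epithelial genes was called, with a median of -0.057, and none of 22 cardiac and skeletal muscle genes or 15 genes of mesothelium and fat. Among 24 genes of endothelium and stroma 2 rose and 4 fell. The list median was -0.15, with 9 members above 0 and 15 below. Col1a1, the main chain of type I collagen, had signals of 10.76, 10.64, 10.70, 10.57 and 11.16 at D0 and of 11.79, 12.08, 11.71, 11.41 and 11.55 at D3, and it rose by 0.94 ± 0.12 (SE, limma adjusted p = 2.37e-07). Col3a1 rose by 0.87. Gpihbp1, which holds lipoprotein lipase on capillary endothelium, fell by 0.73, Cldn5, a tight junction protein of the same cells, by 0.63 and Pdgfra, of lung fibroblasts, by 0.68. The endothelial Cdh5, given above, was slightly higher at D3. In whole tissue, fewer cells of a type and less RNA per cell cannot be told apart.

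Of 22 macrophage and monocyte genes, Ccr2, the receptor for Ccl2, rose by 0.74 and Emr1, now Adgre1, by 0.67, whereas the haemoglobin scavenger receptor Cd163 fell by 0.76. Emr1 came to 0.57, under the fold limit, without D3 replicate 2, and Ccr2 to 0.37 with normexp and 0.43 with the authors' normalized values. The mean of this list lay between 10.97 and 11.03 at D0 and between 11.10 and 11.26 at D3. Among 17 mast cell and eosinophil genes 3 rose, the mast cell protease Mcpt9 by 1.31, the IgE receptor chain Fcer1a by 1.09 and Prg2, of eosinophil granules, by 1.06. Mcpt9 stood at 8.81 to 8.89 at D0 and 9.77 to 10.64 at D3. Prg2 lost its call without D0 replicate 2 or 3 or D3 replicate 3 or 4, with values from 0.80 to 0.96, and with normexp, at 0.55. Fcer1a came under the fold limit with normexp (0.38) and with the authors' normalized values (0.47). In a fit of only these 10 arrays the adjusted p was 0.0735 for Fcer1a and 0.242 for Prg2, which was at 0.60 with the authors' normalized values.

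Among 29 lymphocyte genes 4 rose and none fell, with a median of 0.38 and a mean signal of 7.45 to 7.81 at D0 and 7.86 to 8.23 at D3. Cd8a of cytotoxic T cells rose by 0.74, Cd27 by 0.70, the granule protease Gzmb by 0.61 and the B cell marker Ms4a1 by 1.21. Ms4a1 lost its call without D0 replicate 4 (1.02) or D3 replicate 4 (0.81), and the latter rat, at 7.84, was the highest. Cd27 lost its call without D0 replicate 4 or D3 replicate 1 or 2, with values from 0.57 to 0.61, and Gzmb without D0 replicate 1 or D3 replicate 2, with 0.57 and 0.55, and with slide as a block, at 0.56. Ms4a1 was at 0.58, under the fold limit, with normexp and at 0.61 with the authors' normalized values. In a fit of only these 10 arrays the adjusted p was 0.258 for Ms4a1 and 0.172 for Cd27.

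Of 22 neutrophil genes Fcnb and Retnlg rose, by 1.81 and 0.68, and the granule collagenase Mmp8 fell by 0.84. Mmp8 lost its call without D0 replicate 2 or 4 or D3 replicate 4, with values of 0.69 to 0.77 in size, and Retnlg without D0 replicate 2, at 0.56. In a fit of only these 10 arrays the adjusted p was 0.144 for Mmp8 and 0.0843 for Retnlg. Among 13 red blood cell genes Alas2, the first enzyme of haem synthesis in these cells, fell by 0.70, and the mean of the list was 9.82 to 9.97 at D0 and 9.44 to 9.75 at D3. The means of the lymphocyte, macrophage and red blood cell lists thus did not overlap between the days, whereas that of the neutrophil list, at 7.95 to 8.32 and 7.91 to 8.71, did. The part of these cells in the other differences was not tested.

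Of 38 genes of fatty acid and sterol synthesis, 2 rose and none fell, where 1.45% of all genes rose. The list median was 0.24. Scd1, a stearoyl-CoA desaturase, had signals of 14.63, 14.10, 13.77, 13.65 and 13.79 at D0 and of 15.09, 15.17, 15.10, 14.93 and 13.96 at D3, and it rose by 0.86. D3 replicate 5 lay within the D0 range. Hsd17b7, a step of cholesterol synthesis, rose by 0.67. In a fit of only these 10 arrays the adjusted p was 0.169 for Scd1 and 0.0673 for Hsd17b7, which came under the fold limit with normexp, at 0.56.

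A further question is whether the D0 or the D3 control lungs resembled the other groups. Between D0 and D28 in control rats 587 genes were called (2.33%). This comparison shares the D0 rats with that of D3, so its values are only set beside the others. Top2a was higher at D28 than at D0 by 1.41, Ccnb2 by 1.29 and Birc5 by 1.09, and of the cell cycle list 19 of 40 rose. From D0 to D28 Hspa1b fell by 2.94 and Dnajb1 fell by 0.95. Cyp2e1 fell by 2.02, while Col1a1 rose by 1.79. Dbp differed by -4.48 and Nr1d1 by -2.95 between D0 and D28, and the part of clock phase in the D28 values was not tested.

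At all 4 later days the control means of Hspa1b were lower than at D0, and those of Top2a higher. The D90 and D180 control arrays shared no slide with the control arrays of D0, D3 and D28, and these rats were older. For D90 and D180, day, slide and age therefore cannot be told apart. For Hspa1b they were 12.76 ± 0.90 (SD, n = 5) at D0, 10.39 ± 0.69 at D3 and 9.82 ± 0.61 at D28, followed by 9.89 ± 0.41 at D90 and 10.02 ± 0.70 at D180. Top2a was at 6.07 ± 0.27 at D0 and 7.97 ± 0.18 at D3, and then at 7.49 ± 0.32, 7.01 ± 0.23 and 6.83 ± 0.41 at the 3 later days. The mean of the cell cycle list in control rats fell in the range 8.12 to 8.49 at D28 and 7.96 to 8.12 at D90. At D180 it was 7.79 to 8.04, which at its lower end overlaps the 7.60 to 7.80 of D0.

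**Figure D3:**
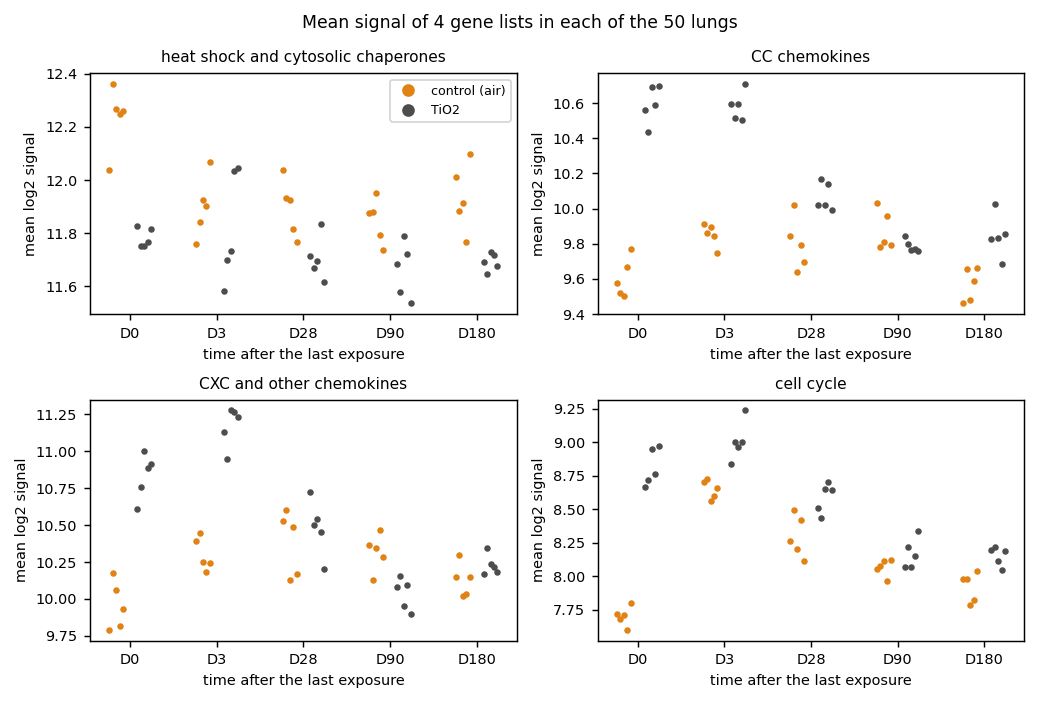
Mean log2 signal (y axes, which do not start at 0) of the genes of 4 lists in each of the 50 lungs (points), by time after the last exposure (x axis), in control rats (orange) and TiO2 rats (grey). In the cell cycle panel the 5 control rats of D0 lie between 7.60 and 7.80 and those of D3 between 8.57 and 8.72. In the heat shock panel the control rats of D0 lie between 12.04 and 12.36 and those of D3 between 11.76 and 12.07, so these groups overlap. The control arrays of D90 and D180 lay on other slides than those of D0, D3 and D28.

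The D0 rats given TiO2 stood apart from the D0 controls in these genes, a difference that was not tested. Hspa1b was between 9.78 and 10.27 in the 5 exposed D0 rats, below every control D0 rat, and Top2a was between 7.68 and 8.41, above every one of them. From D0 to D3 in exposed rats 302 genes were called (1.2%), none of them from the heat shock or cell cycle lists. The difference of the changes, exposed minus control, was tested as an interaction and called for 167 genes (0.662%), 58 above 0 and 109 below. The control change enters the interaction with its sign turned, so that for genes named for a large control change the choice itself favours the opposite sign. Of the cell cycle list 19 of 40 were called below 0 and none above, with a median of -0.83. Top2a changed by 0.37 in exposed rats, so that the interaction was -1.53 (limma adjusted p = 5.08e-05).

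Of the heat shock list 5 of 38 were called above 0 in the interaction, namely Hspa1b, Hspb1, Dnajb1, Ahsa2 and the co-chaperone Stip1, at 2.91, 0.84, 1.05, 0.70 and 0.63. In exposed D3 rats Hspa1b ranged from 8.91 to 13.001, and replicate 4 was the highest. Aqp3, Mlc1, Inmt and Cyp2e1 fell in exposed rats too, by 2.13, 2.01, 1.35 and 1.47, and the interaction was called for none of them. Col1a1 rose in exposed rats by 1.17, and Ccl7 by 1.02. Nr1d1 rose by 2.12 from D0 to D3 in exposed rats and was called in the interaction, at 1.95. At D0 it lay between 6.56 and 7.76 in exposed rats and between 10.18 and 10.64 in control rats, and the part of clock phase in the interaction was not tested.

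**Figure D4:**
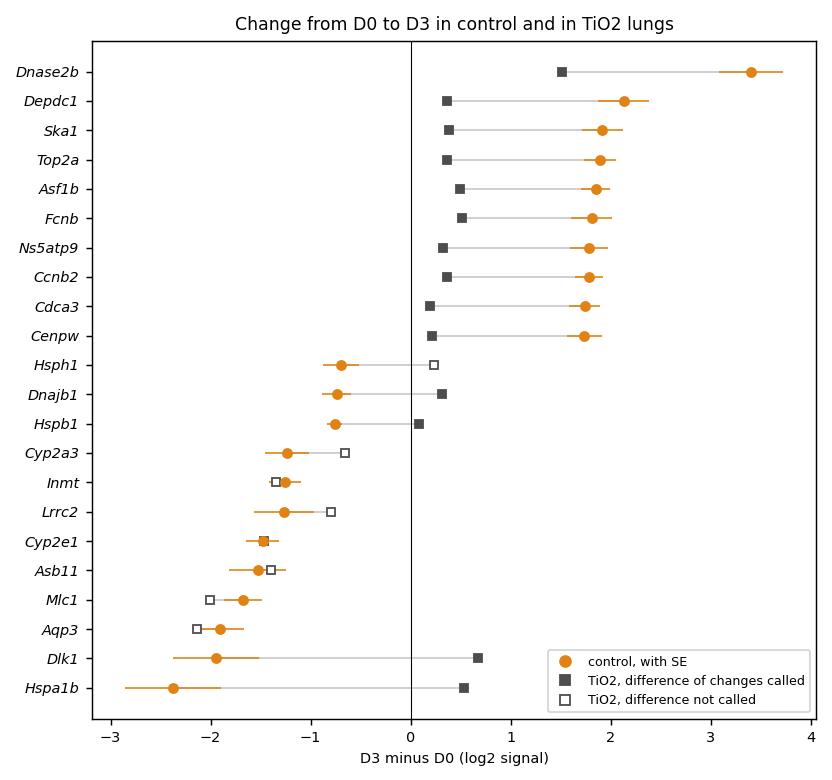
Difference D3 minus D0 (x axis, log2 signal) of 19 of the genes with the largest changes under the naming rule and of 3 further heat shock genes, in control rats (orange, with SE) and TiO2 rats (squares, drawn without error), 5 rats per group. Filled squares mark genes called in the interaction, which the choice of genes by their control change favours. The 10 increases of control rats and Hspa1b, Dlk1, Dnajb1 and Hspb1 have filled squares, and Cyp2e1 moved by -1.48 and -1.47.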

How the data were processed

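Fluorescence intensity of each spot was measured on 1-colour Agilent rat arrays, 1 per rat, from 100 ng of RNA labelled with Cy3. The deposited intensity values came, per the file headers, from version 11.0.1.1 of Agilent's Feature Extraction software; they are linear, background-subtracted and not scaled to other arrays. A deposited value table holds the authors' quantile-normalized intensity, with column medians of 407 to 411, and served as an alternative. The authors' scanner flags for spots above background are coded marks, not measurements.

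Here, control spots and outlier spots were left out and spots were averaged by gene on the linear scale, then log2 transformed and quantile normalized over 50 arrays. Names of 84 spots altered in 22 files were restored from the other files. A gene was kept when at least 5 arrays read it above the level under which 95% of the 308 negative control spots lay (25237 of 25885). limma 3.58.1 in R 4.3.3 was fitted to all 50 arrays with 10 group means, with Benjamini-Hochberg adjustment over all genes. Groups came from the sample titles. Precision is limited by 5 arrays per group. Nothing says that replicates came from separate cages. The p-values rest on a spread between rats that was pooled over all 10 groups, TiO2 groups included.

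The members and the 24 gene lists were chosen with earlier results of these data known, and the lists support nothing by themselves. Named genes were the 10 largest increases and 10 largest decreases among DEGs with a gene symbol, well above background on at least 3 of 5 arrays of the higher group and with groups not overlapping, plus 24 followed genes and up to 4 called members per list. Ahsa2, Tlr2, Cldn5, Stip1, single cell cycle members without a call, Fmo2, Fmo6 and the families of P450, centromere protein and kinesin genes were named after values had been seen. Some genes that the rule names are not reported here. Tested on simulated data for D0 against D3 control rats with 25050 genes, the fit recovered 36%, 68%, 82% and 86% of genes changed 1.5-, 2-, 3- and 4-fold. Same-numbered rats of D0 and D3 deviated from their group means with correlations of -0.18, 0.27, -0.41, 0.18 and -0.31. No pairing by number was seen, though so few values cannot exclude one. Alternatives were 75th percentile scaling, normexp background correction, other probe summaries and filters, slide and replicate blocks, fewer arrays, the series matrix and each array left out. Probe positions are on rn4, promoters on GRCr8.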

Additional observations from a re-analysis of the deposited data

Results flagged for a closer look

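Single rats stood apart within groups of 5 by Dixon's ratio in 6 of 164 tests of a named gene in a group, and chance flags about 1 in 20. They were D0 control replicate 2 for Hspa1b (14.32, nearest rat 12.71), D3 replicate 2 for Il1b (13.13, nearest 12.21), D3 replicate 1 for Tsc22d3 (12.21, nearest 12.91), D3 replicate 5 for Scd1 (13.96, nearest 14.93), D0 replicate 5 for Kif11 (6.32, nearest 6.12) and D0 replicate 4 for Cd27 (8.13, nearest 8.69).

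The change from D0 to D3 differed between exposed and control rats by the interaction in limma for 20 named genes. Many of them were named for a large change in the same control rats, which enters the interaction with its sign turned, so that the choice favours the listed direction. Exposed minus control, it was below 0 for Dnase2b (-1.89), Depdc1 (-1.76), Ska1 (-1.53), Top2a (-1.53), Asf1b (-1.36), Fcnb (-1.30), Ns5atp9 (-1.46), Ccnb2 (-1.42), Cdca3 (-1.55), Cenpw (-1.52), Kif11 (-1.42), Birc5 (-1.10) and Ccr2 (-0.79). It was above 0 for Hspa1b (2.91), Dlk1 (2.62), Dnajb1 (1.05), Hspb1 (0.84), Nr1d1 (1.95), Scd1 (1.42) and Gpihbp1 (1.08).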

How the results depend on the processing

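The count of genes called between D0 and D3 in control rats, 565, became 263 with normexp background correction, 309 with the series matrix values, 316 in a fit of only the groups compared and 1830 with no fold limit. The D28 against D0 count of 587 became 296, 350, 311 and 1755 in the same order. The exposed D3 against D0 count of 302 became 188 with normexp, 108 with only the groups compared and 865 with no fold limit. The interaction count of 167 became 74 with only the groups compared and 313 with slide as a block. The cause of these shifts was not tested. Leaving out 1 array gave 455 to 641, 471 to 766, 270 to 410 and 125 to 200 genes for these 4 comparisons. The replicate block gave 551, 567, 299 and 158. No pairing by number was seen, and 2 of 10 rats correlated best with their own number. Under the block, Sele and Selp were no longer called among the named genes. The heat shock list had 3 to 6 members called and the cell cycle list 22 to 28 over all alternatives with the fold limit. Of 81 called genes in the text, 49 kept their call in every alternative in which they were tested. Signs turned for the dim probe of Hspa1b (0.033), the second probe of Gsta3 (0.066) and Dbp with 75th percentile scaling (0.0050). With 1 array left out, Dbp ranged from -0.084 to 0.014, Nr4a1 from -0.50 to 0.11, Per1 from -0.035 to 0.46 and Cxcl2 from -0.27 to 0.50. Signals near background limit the folds of dim genes such as Dnase2b.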
